A study of Mus musculus with 8 samples.

Results

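The 3 mouse genes of the RhoBTB family, Rhobtb1, Rhobtb2 and Rhobtb3, were followed in reduced representation bisulfite sequencing (RRBS) of hepatocytes from 4 mid-aged (40 weeks) and 4 young (10 weeks) mice. All mice were female and of genotype C57Bl6/J, the hepatocytes were enriched from the perfused liver by collagenase and low-speed centrifugation and then frozen, and each mouse gave 1 library. RRBS cuts DNA with MspI at CCGG and reads up to 100 bases from the fragment ends, so that CpGs close to such a site are covered and most others are not. The members were all CpGs in the mm10 gene body or within 1500 bases upstream of the gene start that had at least 5 reads in every mouse. This gave 139 CpGs in Rhobtb1, 55 in Rhobtb2 and 43 in Rhobtb3, together 237 of the 897285 CpGs tested in the series. The family was chosen by the measured age difference at CpGs of Rhobtb1, so that its values are a description. The number of CpGs of Rhobtb1 that met the criteria for an age difference is given only to mark their place, supports nothing beyond the choice, and comes with no p-value.

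RhoBTB proteins carry a GTPase domain followed by BTB domains. Through the BTB part they bind cullin 3, the scaffold of a ubiquitin ligase, to which they bring proteins for degradation. RHOBTB1 of humans and mice takes part in the turnover of the phosphodiesterase PDE5 in vascular smooth muscle. RHOBTB2, also called DBC2 (deleted in breast cancer), is mutated in a human developmental and epileptic encephalopathy. RHOBTB3 is the most divergent of the 3 proteins, works as an ATPase at the Golgi, and has been linked to the degradation of HIF1A in human cells. In mammals the CpG-rich starts of active genes mostly lack DNA methylation, and gene bodies are mostly methylated.

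Reads over CpGs, counted at every CpG a read covers, came to 84639955 to 118395064 in mid-aged mice and 46321447 to 72710972 in young mice. Mean methylation of all tested CpGs was 44.2 to 44.3% in the mid-aged mice and 43.6 to 44.1% in the young mice. The labelled cell type could be checked only through promoter methylation, and 1 of 18 hepatocyte marker genes (Fgb, a fibrinogen chain) had a promoter with enough tested CpGs. That promoter was at 16.0 to 23.1% in mid-aged mice and 3.35 to 26.3% in young mice. The means over promoters of Kupffer cell and leukocyte markers (3 promoters, 57.5 to 64.5% against 55.1 to 62.8%), sinusoidal endothelial cell markers (3, 26.2 to 33.4% against 26.6 to 32.9%), hepatic stellate cell markers (9, 25.6 to 27.5% against 25.8 to 28.0%) and cholangiocyte markers (5, 35.4 to 38.6% against 35.3 to 38.0%) overlapped between mid-aged and young mice, and the part of other cells in the results below was not tested. Among the single marker promoters, Reln of stellate cells had 6.53 to 7.19% in mid-aged and 5.54 to 5.65% in young mice. Sox9 of cholangiocytes had 1.81 to 2.43% and 0.872 to 1.38%. These did not overlap between the age groups, the others did, and none was called. In bulk DNA, less methylation in every cell and fewer cells with a methylated site cannot be told apart. No label says that libraries were made in separate batches.

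The age difference in Rhobtb1 fell into 1 stretch around the translation start, and its sequence is shown with 2 others that bear on the comparison. The first line gives chr10:69248660-69248959 (mm10, + strand), which spans the end of intron 2 and most of exon 3, the first coding exon, with the 7 CpGs that passed the criteria for an age difference in capitals. The start codon begins after 121 bases of this line, at position 69248781.
Rhobtb1 stretch: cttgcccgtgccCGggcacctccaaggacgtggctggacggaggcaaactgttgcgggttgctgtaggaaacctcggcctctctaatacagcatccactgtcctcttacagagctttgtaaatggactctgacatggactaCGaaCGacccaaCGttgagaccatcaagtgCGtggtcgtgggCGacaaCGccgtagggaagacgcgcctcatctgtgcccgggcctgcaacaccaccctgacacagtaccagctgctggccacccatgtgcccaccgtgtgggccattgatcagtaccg
The next line gives 280 bases around an annotated start of Rhobtb1 from RefSeq (GRCm38.p6, chr10:69212407-69212686, + strand), with the 8 tested CpGs of 14 in capitals, whose methylation averaged 1.15 ± 0.447% in mid-aged mice and 0.896 ± 1.21% in young mice (SD, n = 4 each).
Rhobtb1 start: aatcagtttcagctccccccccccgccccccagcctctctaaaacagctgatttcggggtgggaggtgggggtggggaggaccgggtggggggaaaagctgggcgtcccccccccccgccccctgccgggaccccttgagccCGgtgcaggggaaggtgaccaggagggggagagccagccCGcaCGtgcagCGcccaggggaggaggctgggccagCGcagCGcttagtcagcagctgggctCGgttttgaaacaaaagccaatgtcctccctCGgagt
The last line gives 226 bases of exon 2 of Rhobtb3 (chr13:75943207-75943432, - strand), with its 17 tested CpGs of 24 in capitals, as an example of coding sequence without methylation.
Rhobtb3 exon 2: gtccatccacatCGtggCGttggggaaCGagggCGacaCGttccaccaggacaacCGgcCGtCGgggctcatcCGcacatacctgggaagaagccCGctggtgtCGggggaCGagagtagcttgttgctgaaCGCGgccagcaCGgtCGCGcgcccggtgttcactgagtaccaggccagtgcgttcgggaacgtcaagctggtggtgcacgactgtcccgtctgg

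Each CpG was compared by a quasi-binomial model of its methylated and unmethylated reads, with the p-values of an F test adjusted over all 897285 CpGs by the Benjamini-Hochberg method. A CpG was called when the adjusted p was below 0.05, the means of the age groups differed by at least 5 percentage points, and the variance of the methylated fraction was below 0.05 in both groups. In Rhobtb1, 7 of 139 CpGs were called, all lower in mid-aged mice, and in the genome 0.102% of CpGs were called lower. All 7 lay within 179 bases, chr10:69248672-69248850, from the end of intron 2 into exon 3 of transcript Rhobtb1-201, the first coding exon of its 11 exons. This run (a run being 3 or more called CpGs that change the same way, each within 200 bases of the next) held 11 tested CpGs of 12 in the sequence. Rhobtb2 had 0 called CpGs of 55 and Rhobtb3 had 0 of 43, against 0.163% called in either direction in the genome. Before adjustment, 7 of the 55 CpGs of Rhobtb2 and 1 of the 43 of Rhobtb3 had a p below 0.05, against 9.09% of all tested CpGs, and limma on M values called 0 in both.

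**Figure D1:**
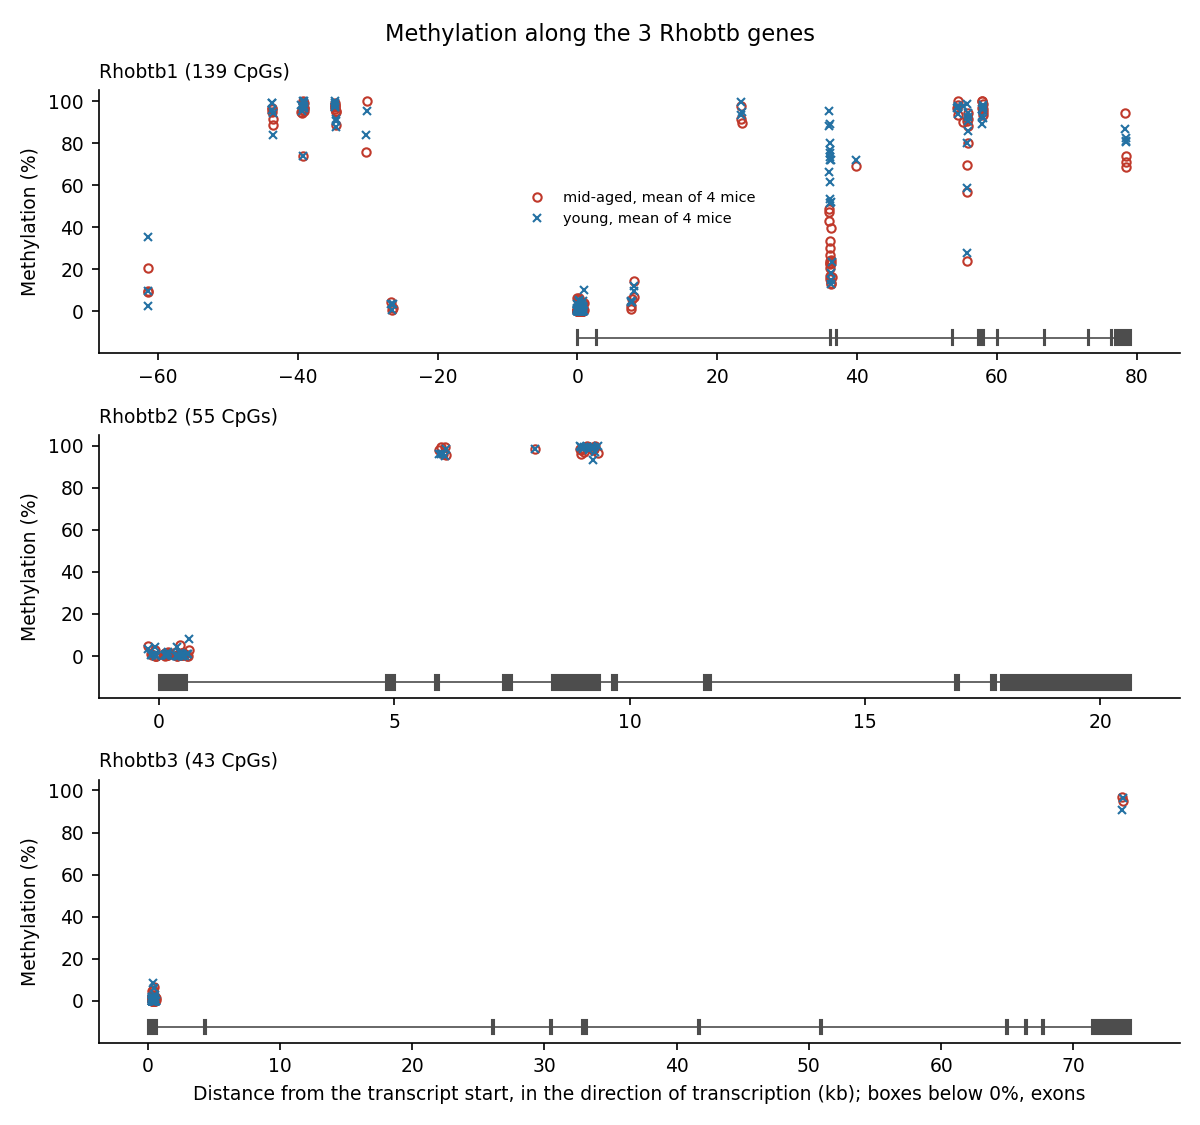
Methylation (%, vertical axes) of each tested CpG against its distance from the transcript start (kb, horizontal axes) in Rhobtb1, Rhobtb2 and Rhobtb3; circles are means of 4 mid-aged and crosses means of 4 young mice, and boxes under the axis are exons. The groups part visibly at 1 place in Rhobtb1, 36.2 kb from the start, where CpGs of young mice lie above those of mid-aged mice.

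The mean methylation of the 11 CpGs of the run was 36.9, 28.8, 30.7 and 25.1% in mid-aged mice 1 to 4, against 69.9, 77.8, 81.1 and 72.9% in young mice 1 to 4. Every mid-aged mouse was below every young mouse, with a gap between the groups that was wider than the range within either. The group means were 30.3 ± 4.95% in mid-aged mice and 75.4 ± 4.99% in young mice (SD, n = 4 each), a difference of -45.07 percentage points. At single CpGs of the run the difference ranged from -58.94 to -18.97 points, and 9 of the 11 CpGs had every mid-aged mouse below every young mouse, which 1.24% of all tested CpGs had.

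The largest difference was at position 69248801 in exon 3. Methylation there was 27.3, 32.3, 27.5 and 32.6% in mid-aged mice (33, 31, 40 and 43 reads) and 72.4, 100, 95.5 and 87.5% in young mice (29, 9, 22 and 40 reads). The 95% Wilson interval was 15.1 to 44.2% for mid-aged mouse 1 and 70.1 to 100% for young mouse 2, the library with the fewest reads here, and such intervals cover counting error only. The mid-aged mice lay close together, and young mouse 1 was the lowest of the young. At 69248849, the last called CpG, mid-aged mice had 21.2, 28.6, 31.7 and 13.5% and young mice 65.4, 100, 73.9 and 81.2%, a difference of -56.39 points. At 69248805 the values were 20, 18.2, 29.3 and 14.3% in mid-aged mice and 55.2, 70.0, 91.3 and 77.5% in young mice. This CpG had the largest loss of the gene among CpGs with at least 10 reads in every mouse, -53.06 points.

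At 69248843 mid-aged mice had 23.5, 20, 28.6 and 18.6% and young mice 68.8, 58.3, 95.8 and 79.1%. At 69248831 mid-aged mice had 27.8, 25.7, 33.3 and 20.9% and young mice 60.6, 80, 96.0 and 70.5%. In both CpGs the young mice spread over a wider range than the mid-aged mice, with young mouse 3 the highest. At 69248813 mid-aged mice had 8.33, 14.7, 28.6 and 9.30%, the lowest level of the called CpGs, and young mice 53.3, 81.8, 43.5 and 68.3%. The CpG 69248837, between these, was not called, and mid-aged mice had 27.8, 13.9, 28.6 and 20.9% against 45.5, 45.5, 57.7 and 57.1% in young mice, which also did not overlap.

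The other called CpG, 69248672, is the first CpG of the run, lies in intron 2 and is part of the CCGG site where the fragment begins. Mid-aged mice had 66.7, 31.6, 37.0 and 36.4% there (6, 19, 27 and 11 reads) and young mice 100, 85.7, 100 and 96.2% (19, 21, 32 and 26 reads). Mid-aged mouse 1, with 6 reads, stood apart from the other mid-aged mice. The other 3 CpGs of intron 2 in the run were not called. At 69248688 mid-aged mice had 66.7, 52.6, 29.6 and 45.5% and young mice 100, 78.3, 97.0 and 76.9%. At 69248698 mid-aged mice had 66.7, 52.6, 33.3 and 36.4% and young mice 63.2, 82.6, 57.6 and 61.5%. At 69248734 mid-aged mice had 50, 26.3, 29.6 and 27.3% and young mice 84.2, 73.9, 83.3 and 46.2%. The groups overlapped at the last pair of these, and mid-aged mouse 1 was the highest mid-aged mouse at both.

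**Figure D2:**
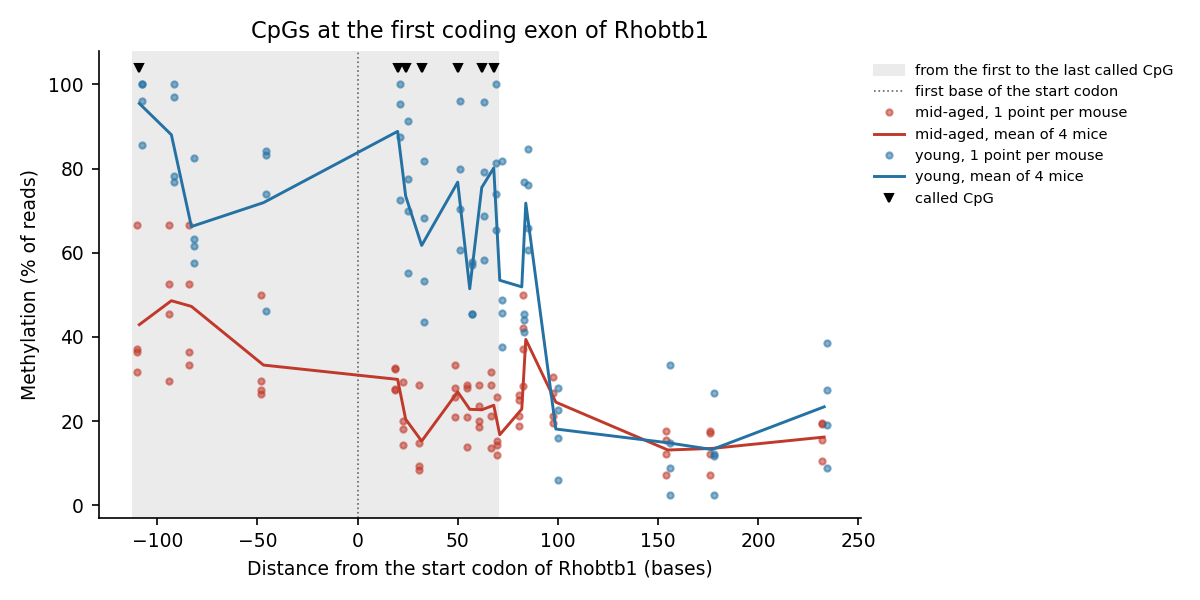
Methylation (% of reads, vertical axis) of the 18 tested CpGs from the run to its right, against the distance from the start codon of Rhobtb1 (bases, horizontal axis). Points are single mice, lines are means of 4 mid-aged or 4 young mice, the shaded span is the run, and triangles mark the 7 called CpGs. The lines are apart over the whole run, at -58.94 to -18.97 points, and meet to the right of it.

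To the right of the run the difference ended within exon 3. The next CpGs, 69248852, 69248863 and 69248865, were not called, and the differences were -36.71, -29.04 and -32.39 points, with every mid-aged mouse below every young mouse at each. The next CpG, 69248880, had 19.6, 21.1, 30.5 and 26.8% in mid-aged mice and 27.8, 16.0, 6.06 and 22.6% in young mice, a difference of 6.39 points with overlap. At 69248936, 69248958 and 69249014 the differences were -1.72, 0.26 and -7.19 points, again with overlap. On the left, the nearest tested CpG was 69236122 in intron 2, 12550 bases from the run. It was at 88.3, 95.1, 88.2 and 86.7% in mid-aged mice and 96.5, 93.7, 95.4 and 92.7% in young mice, so the left border of the difference was not measured.

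The CpGs of the run share reads, because 1 MspI fragment of 208 bases, chr10:69248672-69248879, holds all 11. The 4 CpGs of intron 2 were read only from the forward strand at the left fragment end, and the 7 of exon 3 only from the reverse strand at the right end. The forward reads, over 4 CpGs, gave means of 62.5, 40.8, 32.4 and 36.4% in mid-aged mice and 86.8, 80.1, 84.5 and 70.2% in young mice. The reverse reads, over 11 CpGs with 4 beyond the run, gave 22.8, 24.4, 29.8 and 19.3% in mid-aged mice and 54.0, 73.6, 65.4 and 63.9% in young mice. At both ends, which are separate sets of reads from the same libraries, no mid-aged mouse reached the lowest young mouse. The differences were -37.39 and -40.17 points. Both ends hold called CpGs by which the run was chosen, 1 in the forward and 6 in the reverse reads. Their separation is therefore a description and adds no support. The change from a difference of -29.9 points at 69248865 to 2.91 points at 69248880, in reverse reads pooled over the mice of a group, took place within the same reads.

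The neighbouring fragment of 134 bases, chr10:69248880-69249013, did not show the difference. The forward reads at its left end, over 3 CpGs, averaged 23.0 ± 9.45% in mid-aged mice and 14.4 ± 17.9% in young mice (SD, n = 4 each). The reverse reads at its right end, over 3 CpGs, averaged 12.9 ± 5.24% in mid-aged mice and 16.8 ± 9.76% in young mice. The groups overlapped in both. The run had 6.7 CpGs per 100 bases with an observed to expected CpG ratio of 0.877, against 4.24 and 0.481 in the 165 bases to its right and 2.67 and 0.463 in the 300 bases to its left.

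**Figure D3:**
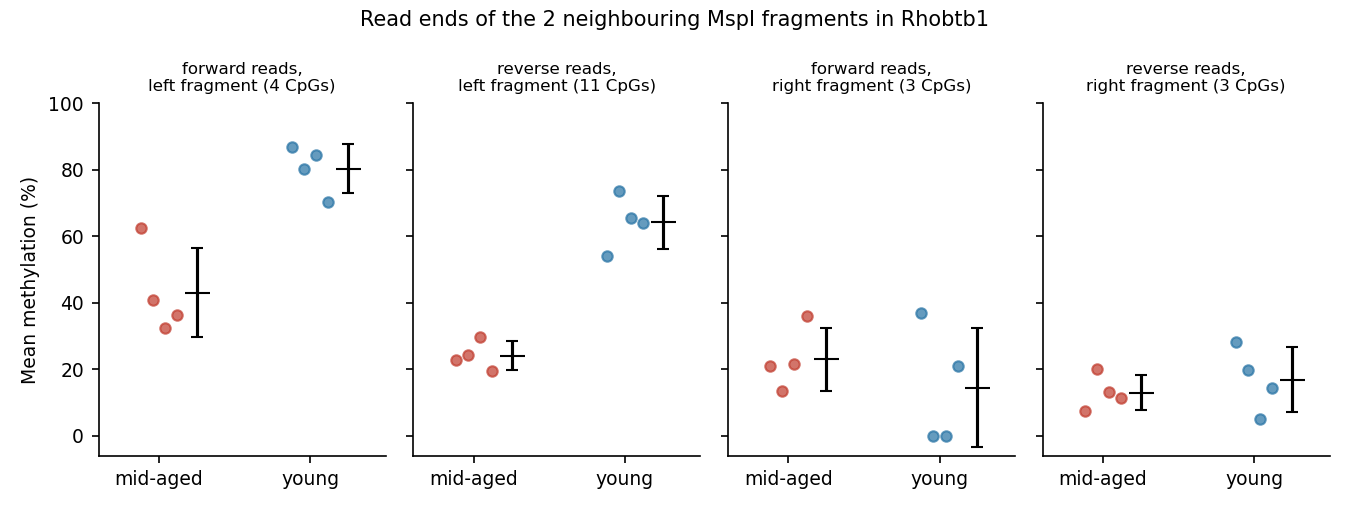
Mean methylation (%, vertical axis) per mouse over the CpGs covered by each read end of the 2 neighbouring MspI fragments, the left one of 208 bases with the run and the right one of 134 bases. Points are mice, with mid-aged left of young in each panel, and bars are mean ± SD (n = 4). Mid-aged and young mice are apart in both panels of the left fragment (-37.39 and -40.17 points) and overlap in both panels of the right one.

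Read numbers differed between the libraries in the run. The mean over the 11 CpGs was 24.3, 28.0, 36.2 and 30.7 reads in mid-aged mice and 26.2, 14.7, 26.7 and 35.1 reads in young mice. Over the 5 CpGs of the run with at least 10 reads in every mouse the difference was -46.17 points, and 4 of them were called. Leaving out each mouse in turn gave differences of -47.25 to -43.19 points. The number of called CpGs in Rhobtb1 was 3 without mid-aged mouse 2 and 3 without mid-aged mouse 4, and 5 to 7 without each of the others.

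The gene mean of Rhobtb1, over 139 CpGs, was 38.4, 38.8, 39.6 and 38.2% in mid-aged mice and 43.1, 44.3, 43.4 and 43.4% in young mice, with no overlap and a difference of -4.81 points. Without the 11 CpGs of the run it was 38.5, 39.7, 40.4 and 39.4% in mid-aged mice and 40.8, 41.4, 40.2 and 40.9% in young mice. The difference was then -1.35 points and the groups overlapped. Without the CpGs of the run and those to its right it was -0.60 points over 121 CpGs, none of them called. With reads pooled over all 139 CpGs the gene mean differed by -7.67 points, and the groups overlapped.

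**Figure D4:**
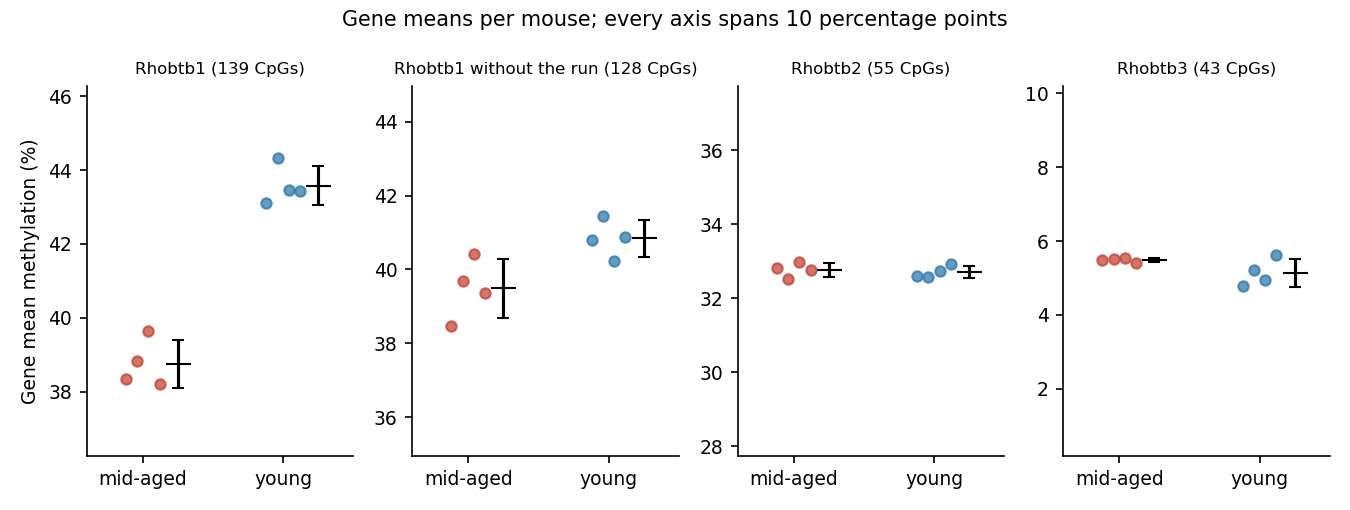
Gene mean methylation (%, vertical axes, each spanning 10 percentage points and not starting at 0) per mouse for Rhobtb1, Rhobtb1 without the CpGs of the run, Rhobtb2 and Rhobtb3. Points are mice, mid-aged left of young, and bars are mean ± SD (n = 4). The groups are apart in the first panel (-4.81 points) and overlap in the other 3.

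Along the rest of Rhobtb1 (chr10:69151434-69291791, + strand), methylation followed the position in the gene more than the age. Its gene record starts with transcript Rhobtb1-209, and Rhobtb1-201, used here for exon numbers, starts at position 69212634. The 3 tested CpGs at the record's start averaged 9.52, 16.1, 24.0 and 3.03% in mid-aged mice and 16.7, 33.3, 10.0 and 3.51% in young mice, with 7 reads in the shallowest library. Between that start and the start of Rhobtb1-201, 4 groups of 2 to 10 CpGs were methylated, at 88.0 to 95.8% in mid-aged mice and 89.7 to 95.5% in young mice as group means. A group of 3 CpGs from 69186006 to 69186221 stood apart from these, with 2.22 ± 1.3% in mid-aged mice and 2.45 ± 1.25% in young mice (SD, n = 4 each).

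The start region of the main transcripts was free of methylation in both age groups. Over the 57 tested CpGs from 1500 bases upstream to 500 bases downstream of the start of Rhobtb1-202 (position 69213194), means were 1.05, 1.21, 1.21 and 1.38% in mid-aged mice and 0.417, 1.35, 1.52 and 0.860% in young mice. That window holds 129 CpGs and 62.4% G and C. The 5 CpGs of intron 2 from 69220275 to 69220685 were at 6.18 ± 2.06% in mid-aged mice and 7.04 ± 3.69% in young mice. The 3 CpGs of intron 2 from 69236089 to 69236122 were methylated, at 92.9 ± 1.78% in mid-aged mice and 95.9 ± 0.886% in young mice. The 4 CpGs at the right end of the stretch, from 69248880 to 69249014, had group means of 13.1 to 24.5% in mid-aged mice and 13.2 to 23.4% in young mice, below the level of the run in young mice.

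Downstream of the run, 13 CpGs of intron 5 averaged 82.5 ± 2.71% in mid-aged mice and 85.5 ± 2.19% in young mice. The 7 CpGs of exon 6, which is coding, were at 97.0 ± 1.62% in mid-aged mice and 94.5 ± 3.46% in young mice. The 4 CpGs of the non-coding part of exon 11, the last exon, were at 76.9 ± 3.91% in mid-aged mice and 82.7 ± 6.32% in young mice. In all 3 the groups overlapped. The largest gain with at least 10 reads in every mouse was at 69270533 in exon 6, with 100% in all mid-aged mice and 100, 63.6, 93.3 and 100% in young mice, 10.8 points. It was 2.22 points without young mouse 2.

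Rhobtb2 (chr14:69784990-69805636, - strand) was split into a start without methylation and highly methylated CpGs in the body, with no tested CpG between 20 and 80%. The 18 methylated CpGs lay in or next to exons 3 and 5, and most of its exons had no tested CpG. The 31 CpGs of its promoter averaged 0.907, 0.878, 1.23 and 0.899% in mid-aged mice and 0.240, 0.760, 1.43 and 0.789% in young mice. The 13 CpGs in and next to exon 5, the exon with most coding sequence, averaged 98.6, 97.5, 98.8 and 98.1% in mid-aged mice and 99.0, 98.4, 98.2 and 98.7% in young mice. Neither the gene mean (32.8, 32.5, 33.0 and 32.8% in mid-aged mice and 32.6, 32.6, 32.7 and 32.9% in young mice, difference 0.05 points, SE 0.317, limma with adjusted p = 0.972) nor the promoter mean (difference 0.17 points, SE 0.260, adjusted p = 0.881) passed the test. In the genome 0.52% of gene means and 0.0565% of promoter means were called. With reads pooled over the CpGs, the gene mean of Rhobtb2 differed by 7.24 points (SE 4.25, limma with adjusted p = 0.331).

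The largest gain in Rhobtb2 was at 69796418 in exon 5, 4.68 points, with 97.8, 98.3, 98.5 and 97.5% in mid-aged mice and 100, 81.8, 94.9 and 96.7% in young mice (quasi-binomial test with limma-moderated dispersion, adjusted p = 0.645). The largest loss was at 69805006 in intron 1, -5.08 points, with 2.38, 5.94, 0 and 4.04% in mid-aged mice and 26.7, 0, 1.92 and 4.11% in young mice (adjusted p = 0.941, same test). Each rested on 1 mouse. The gain was 0.83 points without young mouse 2, and the loss turned to 1.08 points without young mouse 1.

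Rhobtb3 (chr13:75869537-75943925, - strand) was covered almost only at its start. Of its 43 CpGs, 41 lay in chr13:75943282-75943587, across exon 1, intron 1 and exon 2, and averaged 0.998, 1.09, 1.31 and 0.888% in mid-aged mice and 0.639, 0.843, 0.648 and 1.13% in young mice. The other 2, in the non-coding part of exon 12, averaged 97.2, 96.0, 92.6 and 97.96% in mid-aged mice and 89.5, 94.8, 92.8 and 97.5% in young mice. The gene mean was 5.47, 5.50, 5.55 and 5.40% in mid-aged mice and 4.77, 5.21, 4.93 and 5.62% in young mice, a difference of 0.35 points (SE 0.227, limma with adjusted p = 0.624), and the promoter mean differed by 0.19 points (SE 0.338, adjusted p = 0.906). With pooled reads the gene mean differed by -3.47 points (SE 1.90, limma with adjusted p = 0.305). The largest gain, 5.97 points at 75870163 in exon 12 (quasi-binomial test with limma-moderated dispersion, adjusted p = 0.735), came with 100, 97.4, 91.7 and 97.96% in mid-aged mice and 78.9, 100, 89.1 and 95.1% in young mice. The largest loss, -3.32 points at 75943493 in intron 1 (adjusted p = 0.736, same test), came with 4.57, 6.35, 1.96 and 6.92% in mid-aged mice and 0, 6.74, 9.68 and 16.7% in young mice. At both CpGs the groups overlapped, and the gain was 2.02 points without young mouse 1 and the loss -0.52 points without young mouse 4.

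The 3 genes shared an unmethylated start and differed in how much of the body was measured. CpGs with a mean over all mice between 20 and 80% were 24 of 139 in Rhobtb1, 0 of 55 in Rhobtb2 and 0 of 43 in Rhobtb3, against 13.7% of all tested CpGs. Those of Rhobtb1 include the 11 tested CpGs of the run, which was chosen for its age difference. There the mean joins 2 unlike groups, as at 69248801 with 29.9% in mid-aged and 88.8% in young mice. The tested CpGs were 7.44% of the CpGs in the sequence of Rhobtb1, 13.9% in Rhobtb2 and 6.3% in Rhobtb3. Median coverage of the tested CpGs was 75.5 reads in mid-aged mice and 42 in young mice in Rhobtb1, 124.5 and 80 in Rhobtb2, and 75 and 20 in Rhobtb3. A difference like that of Rhobtb1 could, with these shares of CpGs, go unseen in most of each gene. The limit of 5 reads cut through the members at a few CpGs: in Rhobtb1, 5 CpGs with exactly 5 reads in the shallowest mouse differed by -6.03 to 0.07 points, and 6 CpGs with 4 reads, just outside, by -2.30 to 2.05 points. In Rhobtb2, 3 such CpGs with 5 reads differed by -1.14 to 0 points and 11 with 4 reads by -5.26 to 5.0 points. Rhobtb3 had 0 CpGs with 5 reads in the shallowest mouse, and its 2 with 4 reads differed by 0 to 9.92 points.

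The runs of at least 5 called CpGs in other annotated genes were ranked by the correlation of their mean methylation with that of the Rhobtb1 run over the 8 mice. All the runs were chosen for an age difference, and they share the libraries, so that a correlation is set by the choice to a large part and is a description. Among 48 runs, 21 were lower in mid-aged mice, and their median r was 0.951. The closest was a run of 8 CpGs in Fasn (fatty acid synthase, chr11:120820943-120821078), with r = 0.994. It averaged 43.2 ± 6.90% in mid-aged mice and 85.5 ± 1.97% in young mice (SD, n = 4 each). It was followed by Sh3pxd2a (a scaffold protein of podosomes, r = 0.991), Zap70 (a kinase of T cell receptor signalling, r = 0.983), Gm38398 (r = 0.983) and a second run in Fasn (r = 0.982). In Zap70 the difference was -23.65 points and in Sh3pxd2a -28.70 points, smaller than in the Rhobtb1 run, and in Gm38398 and the second Fasn run -42.89 and -41.99 points. In the genome 79 runs were lower in mid-aged mice, with a median of 3 called CpGs, and 7 of them had at least 7.

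**Figure D5:**
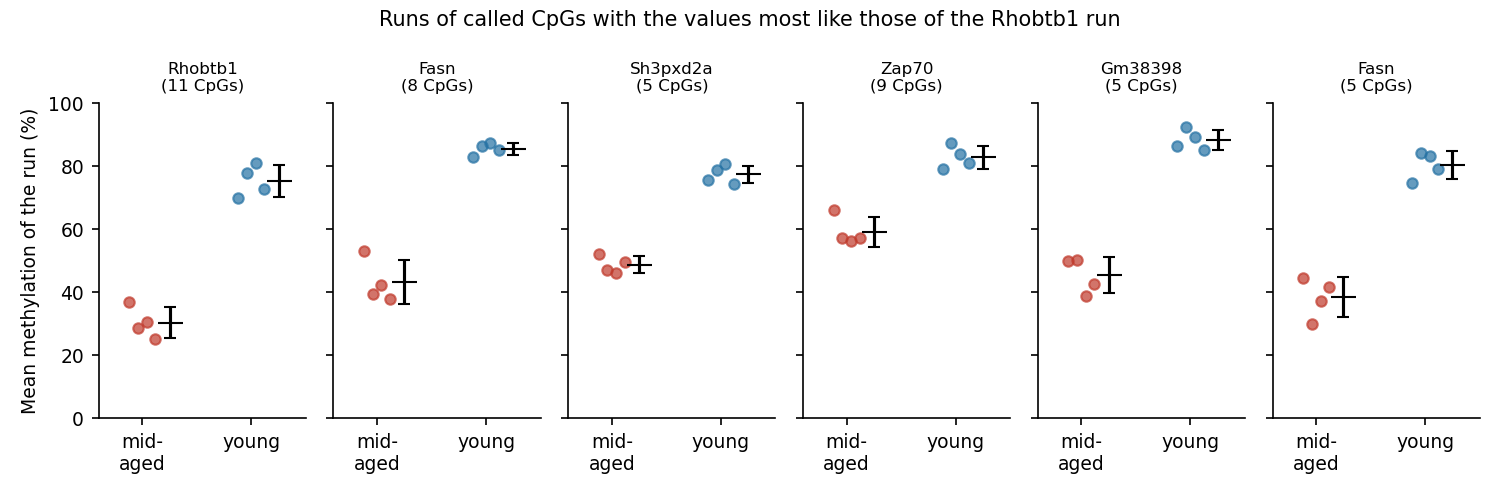
Mean methylation (%, vertical axis) per mouse of the Rhobtb1 run and of the 5 runs in other genes with the highest correlation over the 8 mice. Points are mice, mid-aged left of young, and bars are mean ± SD (n = 4). In all 6 runs every mid-aged mouse is below every young mouse.

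The genes around RhoBTB function were described from 3 lists fixed from general knowledge. A gene in a list is not shown here to bind cullin 3 or a RhoBTB protein. The first list was the cullin 3 ligase core (Cul3, Rbx1, the NEDD8 enzymes and the COP9 signalosome). In it 0 of 817 CpGs in 24 genes were called by the quasi-binomial test, against 0.163% of all CpGs. Of these CpGs, 63 had an unadjusted p below 0.05 (9.09% of all tested CpGs had), and limma on M values called 0. In other BTB adaptors of cullin 3, 6 of 2597 CpGs in 47 genes were called (0.231%, against 0.163% of all CpGs), 5 lower and 1 higher, with 209 at an unadjusted p below 0.05. That count was 3, 1, 2 and 3 without mid-aged mice 1, 2, 3 and 4 in turn, 3 without young mouse 2, and 0 by limma on M values. The third list held genes with a reported link to RhoBTB proteins, as partner, substrate or otherwise, and is called the partners below. Of its 776 CpGs in 15 genes, 1 was called (0.129%, against 0.163% of all CpGs), with 53 at an unadjusted p below 0.05. The median difference over all CpGs of these lists was 0.09, 0.13 and 0.21 points in this order, and 0.21 points over all tested CpGs. No gene mean and no promoter mean of the 3 lists was called by limma. Before adjustment, 0 of 24, 6 of 47 and 5 of 15 gene means had a limma p below 0.05. So had 1 of 21, 2 of 41 and 1 of 13 promoter means. The shares over all genes at that limit are not given here, so that these counts are a description.

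Among the BTB adaptors, Klhl36 had 2 called CpGs. At the larger one, chr8:119876853, mid-aged mice had 13.2, 18.0, 14.2 and 19.4% and young mice 58.5, 41.0, 44.9 and 49.4%, a difference of -32.29 points (quasi-binomial test with limma-moderated dispersion, as for the next values, adjusted p = 0.00146). Kctd6, an adaptor in the degradation of histone deacetylases, had 59.6 ± 1.68% in mid-aged mice and 81.4 ± 6.16% in young mice at its called CpG, chr14:8222705 (adjusted p = 0.0167). Kctd17, which acts in the formation of primary cilia, had 83.6 ± 5.02% in mid-aged mice and 98.8 ± 1.61% in young mice at its called CpG (adjusted p = 0.012). These 3 CpGs had no overlap between the groups. Klhl22, an adaptor in mitosis and in amino acid signalling, had 42.2 ± 8.67% in mid-aged mice and 55.8 ± 3.64% in young mice (adjusted p = 0.0102), with overlap. Kctd15, an inhibitor of AP-2 factors in the neural crest, was the gene of this list with a gain, with 14.6 ± 5.78% in mid-aged mice and 3.25 ± 1.29% in young mice (adjusted p = 0.0405), without overlap.

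In the list of partners, Ccnd1 (cyclin D1 of the G1 phase) had 26.3, 17.9, 9.62 and 10.3% in mid-aged mice and 63.6, 53.1, 50 and 51.6% in young mice at chr7:144934056, a difference of -38.55 points without overlap (quasi-binomial test with limma-moderated dispersion, adjusted p = 0.00407). That list had 2 called CpGs without young mouse 4.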

How the data were processed

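RRBS of hepatocytes from 8 mice (4 mid-aged, 4 young) was analysed, grouped by the age in the labels. The authors deposited, for each mouse and CpG strand, the percent methylation and the number of reads. Methylated read counts were obtained here from the deposited percent and coverage, and all entries came out whole within the rounding of the percent. The submitters' processing notes name mm10, Picard 1.115, SAMtools 1.3, BWA 0.6.2 and Trim Galore 0.4.2. The program that called methylation was not given in the sources used here.

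Strands were summed and CpGs with at least 5 reads in every mouse kept (median coverage 41 to 76 reads in mid-aged and 29 to 51 in young mice). Each CpG was tested by a quasi-binomial model with an F test, with the dispersion moderated by squeezeVar of limma 3.58.1 (R 4.3.3) and floored at 1. Gene means (gene body and 1500 bases upstream) and promoter means (1500 bases upstream to 500 downstream of the start, at least 3 CpGs) were tested by limma with trend. P-values were adjusted by the Benjamini-Hochberg method over all features. Genes are from GENCODE vM21. Wilson intervals (95%) came from scipy 1.17.1. Nothing says that the mice differed in litter or batch. The p-values of gene and promoter means rest on 1 value per mouse. Those of the CpG test rest on read counts and on a spread between mice that is largely shared over CpGs. Simulated counts over 897285 CpGs had changes only at CpGs of intermediate methylation, a level that no tested CpG of Rhobtb2 or Rhobtb3 had. With binomial noise, the CpG test found 51 of 66 changes of 30 points, 28 of 67 of 20 points and 1 of 67 of 10 points, with 3 false calls. With a correlation of 0.01 between reads of a mouse it found 23, 9 and 0 of these, and with 0.02 it found 9, 0 and 0, so that changes of this size can be missed.

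Named CpGs were all called CpGs of the 3 genes, the others within a run, its nearest tested neighbours and the largest gain and loss with at least 10 reads in every mouse. The CpGs to the right of the run were added after their values were seen. From each list, the genes with called CpGs were named by the CpG with the largest difference. Alternatives were other coverage limits, limma on M values, single strands, pooled reads, a replicate block and leaving out each mouse. The members and lists were chosen with earlier results of these data known. One gene list that was part of the design, and 1 exon, are not reported here.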

Additional observations from a re-analysis of the deposited data

Results flagged for a closer look

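Dixon's test for 1 value far from the other 3 of its group marked 4 of the 70 groups of mice examined, and chance marks about 1 in 20. In Rhobtb1, mid-aged mouse 1 had 66.7% at CpG 69248672, against 31.6 to 37.0% in the other mid-aged mice, and 50% at CpG 69248734, against 26.3 to 29.6%. Each value rested on 6 reads, the fewest of the 8 libraries there. The promoter mean of Rhobtb2 was 1.23% in mid-aged mouse 3, against 0.878 to 0.907% in the other mid-aged mice. At CpG 69805006 of Rhobtb2, young mouse 1 had 26.7%, against 0 to 4.11% in the other young mice.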

How the results depend on the processing

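The number of called CpGs in Rhobtb1 was 7. It became 4 with at least 10 reads, 1 on the forward strand, 6 on the reverse strand, 5 with limma on M values and 0 with a replicate block. With at least 10 reads only 4 of the 7 could be tested, on the forward strand 1 and on the reverse strand 6, and all of these stayed called. The number was also 4 when called CpGs with fewer than 10 reads were left out, a choice made after seeing the data. Leaving out 1 mouse at a time gave 3 to 7 in Rhobtb1, 1 to 7 in the BTB adaptors and 1 to 2 in the partners. The BTB adaptors and the partners had 0 called CpGs each with limma on M values and 0 each with a replicate block. The gene mean difference of Rhobtb1 was -3.30 points with no coverage filter, -4.81 with a replicate block, -7.67 with reads pooled over CpGs, and -5.11 to -4.33 without 1 mouse, all as a description. The run mean difference was -37.39 points on the forward strand, where 4 of its CpGs lie, and -47.25 to -43.19 without 1 mouse. Weighting the forward and reverse parts equally, and the promoter at the start of Rhobtb1-202, were also chosen after seeing the data. No called difference turned its sign. Of the others, the gene mean difference of Rhobtb2 was 7.24 points with pooled reads and -0.02 without mid-aged mouse 3, that of Rhobtb3 -3.47 with pooled reads, its promoter mean difference -0.03 with pooled reads and -0.10 without young mouse 1, the difference at 75943493 5.52 on the forward strand, at 69805006 1.08 without young mouse 1, and the promoter mean difference of Rhobtb1 0.66 and 3.10 points without mid-aged mouse 4 and young mouse 2 and 0.17 at the start of Rhobtb1-202. Rhobtb2 and Rhobtb3 had 0 called CpGs under every alternative.

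The labels do not say whether the replicate numbers pair the mice, which were treated as unpaired. Deviations of same-numbered mice correlated by -0.0025 to 0.0081 over 123317 CpGs, and those of differently numbered mice by -0.0091 to 0.0101. Such values cannot exclude that same-numbered mice were handled together. Over the genome, 1466 CpGs were called, and 25 with the replicate block, 228 with limma on M values, 616 and 648 on the forward and reverse strand, and 612 to 2328 without 1 mouse. Of gene means 127 were called, and 71 with no coverage filter, 17 with the block, 18 with pooled reads and 47 to 86 without 1 mouse. Of promoter means 10 were called, 0 with the block and 2 to 9 without 1 mouse. The promoter mean of Rhobtb1 had no value with at least 10 reads. Depth in the run, 14.7 to 36.2 reads per CpG and mouse, limits single CpGs more than their mean.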
